A study of Mus musculus with 6 samples.

Results

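The genes described here encode the enzymes that write, copy, oxidise and excise methylated cytosine in DNA. They are Dnmt1 and Uhrf1 (maintenance of methylation), Dnmt3a, Dnmt3b and Dnmt3l (de novo methylation), Tet1, Tet2 and Tet3 (oxidation), and Tdg and Mbd4 (excision). Each was found by matching the Entrez gene ID of the count table to a RefSeq gene table, which gave 10 genes of the 24467 in the table. All 10 passed the filter on low counts that left 14771 genes for testing. The rule is a list of gene names and holds no threshold on a measured value.

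Methylated cytosine sits mostly in the dinucleotide CpG of mammalian DNA. DNMT1 copies the mark onto the new strand after replication and is brought there by UHRF1, which binds hemimethylated DNA and modified histone H3. DNMT3A and DNMT3B place the mark on unmethylated DNA, and DNMT3L, which has no catalytic activity, stimulates both. The TET enzymes oxidise 5-methylcytosine with 2-oxoglutarate as a cosubstrate, TDG removes the further oxidised forms, and MBD4 removes thymine and uracil mispaired at CpG. Mouse embryonic stem (ES) cells grown with inhibitors of GSK3 and MEK are known for low DNA methylation, and Dnmt3l RNA is a mark of pluripotent and germ cells.

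RNA was sequenced in 6 libraries of mouse ES cells, 2 from each of 3 clones. HP1 alpha, encoded by Cbx5, and HP1 beta, encoded by Cbx1, are heterochromatin proteins that read methylated histone H3. The control is named Hp1α/β F/F, for floxed alleles of both genes, and its genotype is given as WT. Its titles, unlike those of the DKO libraries, do not say clone, and it is counted here as 1 of the 3 clones. DKO clones 1 and 2 are double knockouts of both genes. The culture medium of all 3 clones was DMEM with LIF, knockout serum replacement, the GSK3 inhibitor CHIR99021 (3 µM) and the MEK inhibitor PD184352 (0.8 µM), and no other treatment was given. Sex, strain and the means of deletion are not given in the labels. With a single control clone, the effect of genotype and that of clone cannot be told apart. Nothing says that libraries of the same clone came from different cultures, so p-values measure only the spread between libraries, which may be technical.

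The libraries held 24628872 to 34641560 counts. Expression is given as CPM, the counts scaled to a common library size with TMM factors, as mean ± SD. In the DKO libraries, Cbx5 was at 198 ± 6.58 CPM (n = 4) against 811 ± 2.96 CPM in control (n = 2), and Cbx1 at 45.7 ± 2.44 against 225 ± 2.88 CPM. The deleted exons are not given, so these counts may cover exons that remain. The summed level of 8 ES cell markers was 3608 to 3732 CPM in control and 3805 to 3989 CPM in DKO. By the test described below, 1 of the 8 was higher and 0 lower in DKO (12.5%, against 8.69% of all genes). With each chromosome centred, also described below, 0 were called. Of 14 fibroblast and feeder cell markers, 7 stayed under 1 CPM in all 6 libraries, with Twist2 at 0 reads. The sum of the 14 was 1266 to 1286 CPM in control and 1319 to 1521 CPM in DKO. Most of it came from 1 gene, with a mean of 823 CPM over the 6 libraries. By the same test, 1 of the 7 tested markers was higher and 1 lower in DKO (28.6%, against 8.69% of all genes). The 5 primitive endoderm markers summed to 6.03 to 7.53 CPM in control and 2.96 to 4.66 CPM in DKO, and the 5 trophectoderm markers to 16.8 to 20.9 and 16.7 to 25.1 CPM. Of the primitive endoderm markers, 0 were called in DKO or clone 1 and 1 was lower in clone 2. Of the 4 trophectoderm markers tested, 0 were higher and 1 lower in DKO (25%, against 8.69% of all genes). In each clone against control, 1 of these 4 was higher and 2 were lower, so the sum hides opposite moves. With each chromosome centred, 1 was higher and 0 lower in clone 1, and 1 higher and 1 lower in clone 2. The part of these differences in the results below was not tested. In bulk RNA, fewer cells of a type and less RNA per cell cannot be told apart.

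The start sites of these genes differ widely in CpG, the target of the enzymes themselves. RefSeq (GRCm38.p6) gave 17 start site windows for the 10 genes, each of 300 bases, from 250 before to 50 after the start. Over all 32851 windows of the table the median was 7 CpG, with quartiles of 3 and 20. The windows below are shown for Tet2 and Tet1, whose shares of their family are set side by side below, and for the 3 genes of the Dnmt3 family. They read 5′ to 3′ on the strand of the gene, with each CpG in capitals.
Tet2, chr3:133544341-133544640, minus strand: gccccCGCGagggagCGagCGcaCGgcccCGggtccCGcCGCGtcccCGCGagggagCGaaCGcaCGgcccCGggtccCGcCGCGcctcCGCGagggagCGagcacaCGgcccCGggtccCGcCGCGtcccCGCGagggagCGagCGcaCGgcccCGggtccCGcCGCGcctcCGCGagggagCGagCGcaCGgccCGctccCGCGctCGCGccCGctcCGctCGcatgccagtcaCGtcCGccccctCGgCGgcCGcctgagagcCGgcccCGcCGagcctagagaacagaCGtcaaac
Tet1, chr10:62887275-62887574, minus strand: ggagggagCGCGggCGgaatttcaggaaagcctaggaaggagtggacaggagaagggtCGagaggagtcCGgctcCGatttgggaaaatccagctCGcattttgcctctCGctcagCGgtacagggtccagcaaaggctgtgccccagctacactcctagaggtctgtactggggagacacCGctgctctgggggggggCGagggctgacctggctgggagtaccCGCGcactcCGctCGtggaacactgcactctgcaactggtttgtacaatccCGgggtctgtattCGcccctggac
Dnmt3b, chr2:153649199-153649498, plus strand: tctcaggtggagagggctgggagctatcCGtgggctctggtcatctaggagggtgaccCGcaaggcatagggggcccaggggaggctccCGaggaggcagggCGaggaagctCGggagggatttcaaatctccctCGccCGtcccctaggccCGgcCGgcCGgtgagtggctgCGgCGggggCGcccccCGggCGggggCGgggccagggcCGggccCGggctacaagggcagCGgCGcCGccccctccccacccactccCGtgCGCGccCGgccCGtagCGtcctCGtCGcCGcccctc
Dnmt3a, the most downstream of its 3 windows, chr12:3891494-3891793, plus strand: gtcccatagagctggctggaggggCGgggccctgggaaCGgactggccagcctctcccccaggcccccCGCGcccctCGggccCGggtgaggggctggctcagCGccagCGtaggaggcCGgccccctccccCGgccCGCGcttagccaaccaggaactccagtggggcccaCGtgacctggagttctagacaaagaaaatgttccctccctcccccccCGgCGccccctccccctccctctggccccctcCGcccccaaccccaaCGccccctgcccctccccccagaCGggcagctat
Dnmt3l, the most upstream of its 3 windows, chr10:78042037-78042336, plus strand: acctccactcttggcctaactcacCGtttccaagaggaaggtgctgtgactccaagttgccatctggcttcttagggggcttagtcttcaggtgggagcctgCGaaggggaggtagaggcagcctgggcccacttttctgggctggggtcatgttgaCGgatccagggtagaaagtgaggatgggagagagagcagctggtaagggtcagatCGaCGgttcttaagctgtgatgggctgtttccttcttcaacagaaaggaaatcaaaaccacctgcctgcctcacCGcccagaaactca

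The Tet2 window held 57 CpG, more than 99.8% of all windows. The Tet1 window held 17 and the Dnmt3b window 30. The Dnmt3a window shown held 18 CpG, while both upstream windows of Dnmt3a held 46 and 47. The Dnmt3l windows were poor in CpG, with 6, 4 and 3 from the most upstream to the most downstream. Among the other members, Mbd4 had 25, Tdg 26 and Tet3 22 CpG, Dnmt1 had 2, 12 and 33, and Uhrf1 had 12 and 33. The letters GGGCGG, on either strand, occurred in 13 of the 17 windows and in 35.7% of all windows. The letters CCAAT, on either strand, occurred in 7 of the 17 and in 37.4% of all windows. Windows of 1 gene can overlap, as the first and second of Dnmt3a do, and such matches describe the letters only.

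Levels of different genes are compared per kilobase of the width given in the deposited table, as CPM per kilobase. How that width was made is not given, and a gene with many isoforms, such as Dnmt3a with 16.6 kb, may be set low by it. Uhrf1 was highest, with a mean of 176 over the 6 libraries. Dnmt3l (94.5) and Dnmt1 (80.2) followed, with ranges over the libraries that overlapped. Dnmt3b (56.8), Tet2 (47.6) and Tet1 (46.5) came next and overlapped with each other in that order. Tdg was at 20.9, apart from its neighbours in the order. Mbd4 (6.98) and Dnmt3a (6.33) overlapped, and Tet3 was lowest at 0.621. Uhrf1 was above 98.3% of all tested genes on this scale and Tet3 above 21.2%.

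**Figure D1:**
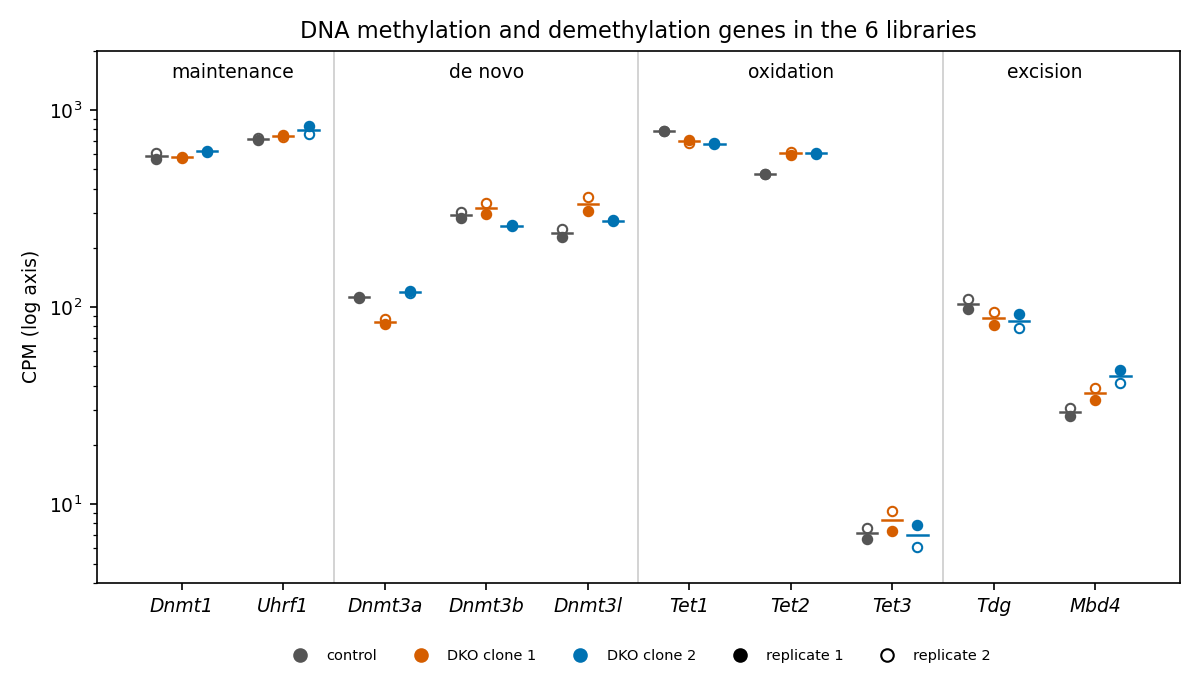
Level of each gene in CPM on a log axis, with filled points for replicate 1, open points for replicate 2 and a line at the mean of each clone (2 libraries). The genes span from Tet3, at 6.07 to 9.27 CPM, to Uhrf1, at 706 to 833 CPM, and the Tet2 points of both DKO clones sit above those of control.

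In DKO against control, 2 of the 10 genes passed the test, both higher, and 0 were lower. A gene is called when the edgeR quasi-likelihood test, two-sided and adjusted by Benjamini and Hochberg over all 14771 genes, gave a p under 0.05. Of all tested genes, 8.69% were called, 5.06% higher and 3.62% lower. These members were Tet2 and Mbd4. At an unadjusted p under 0.05 there were 3 members higher and 2 lower, and 1 was called lower by DESeq2 and by limma-voom (Tet1 in both). The control and DKO libraries did not overlap for 6 members (Uhrf1, Dnmt3l, Tet1, Tet2, Tdg and Mbd4), where 33.8% of all tested genes had such a gap. The median log2 change of the 10 was 0.06, against 0.00 over all genes.

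A shift of whole chromosomes touched 3 members, and it is given here before their values. The 709 tested genes on chromosome 6, which holds Mbd4 and Tet3, had a median log2 change of 0.48 in DKO against control. Of these genes, 49.1% were called higher. The median of the 701 genes on chromosome 3, which holds Tet2, was 0.18, with 12.8% called higher. In clone 1 the median of chromosome 3 was 0.28, and in clone 2 it was 0.08. The median of each other chromosome that holds a member lay between -0.02 and -0.0012 in DKO. Each edgeR comparison was therefore also run on libraries centred on the median of each chromosome. The family shares, the overlap of libraries and the correlations between genes were not centred. With that centring, 772 genes (5.23%) were called in place of 1283, 337 higher and 435 lower in place of 748 and 535. Of the 10 members, edgeR then called 0, with 2 higher and 2 lower at an unadjusted p under 0.05. DNA copy number was not measured in the data used here, and its part in these shifts was not tested.

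**Figure D2:**
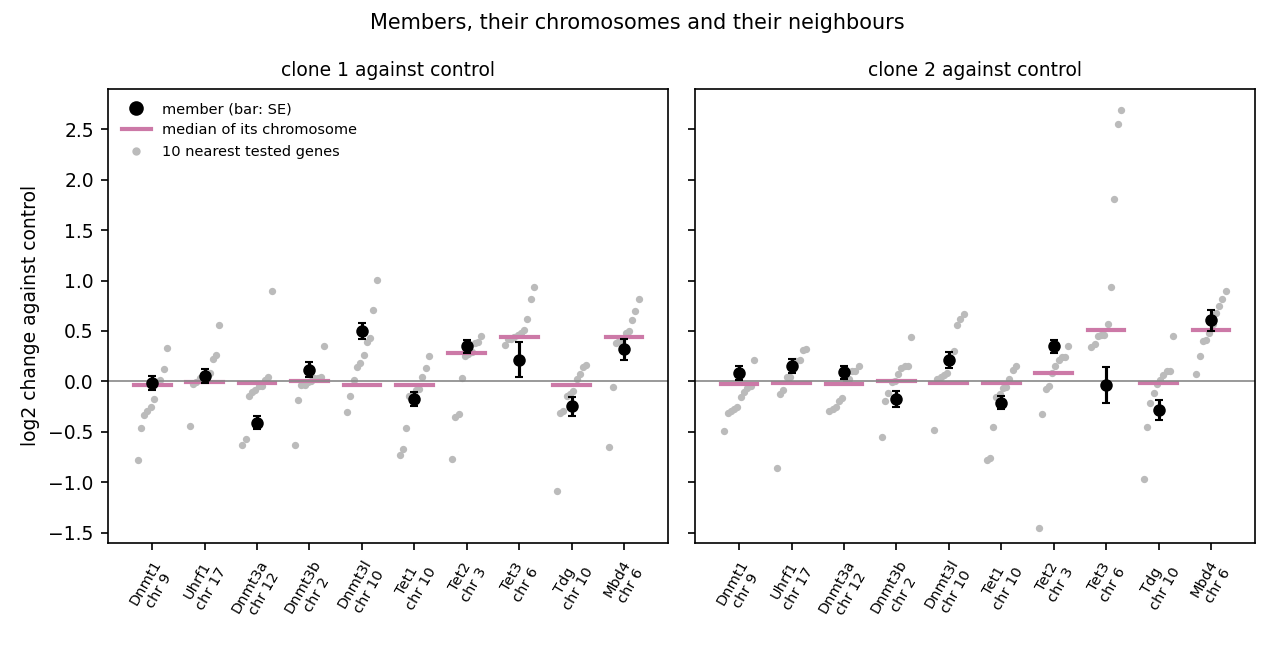
Log2 change of each gene (black, bar for the SE) in clone 1 and in clone 2 against control, with the 10 nearest tested genes (grey, sorted by value) and the median of its chromosome (line). The chromosome 6 medians stand at 0.44 and 0.51, and Tet3 lies below all 10 of its neighbours in both panels.

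For maintenance methylation, neither gene was called in DKO or in either clone against control. Dnmt1 (Entrez 13433, chr9:20907206-20959888, minus strand) encodes the methyltransferase that copies methylation at replication. It was at 563 and 602 CPM in control, 579 and 573 in clone 1 and 618 and 616 in clone 2. The libraries of the groups overlapped, with a log2 change in DKO of 0.03 (SE 0.0659, adjusted p = 0.812). Uhrf1 (Entrez 18140, chr17:56303337-56323486, plus strand), the DNMT1 partner that reads hemimethylated CpG, was at 706 and 723 CPM in control. It was at 749.8 and 733 CPM in clone 1, and at 833 and 754 in clone 2. Each DKO library was above both control libraries, but the log2 change of 0.10 (SE 0.0702, adjusted p = 0.423) was not called.

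For de novo methylation, Dnmt3a fell and Dnmt3l rose in clone 1, and the clones differed in Dnmt3a and Dnmt3b. Dnmt3a (Entrez 13435, chr12:3801559-3914443, plus strand), a de novo methyltransferase, was at 112 and 112 CPM in control. Clone 1 had 82.2 and 86.7 CPM, and clone 2 had 121 and 118. The libraries of clone 1 lay below control and those of clone 2 above it, so the DKO mean of 102 ± 20.2 CPM (n = 4) describes neither clone. The log2 change of both clones together was -0.14 (SE 0.146, adjusted p = 0.625).

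The comparisons of each clone with control share the control libraries. In clone 1, 3 of the 10 members were called, Dnmt3l and Tet2 higher and Dnmt3a lower, where 15.3% of all tested genes were called, 8.79% higher and 6.47% lower. In clone 2, 3 members were called, Tet2 and Mbd4 higher and Tet1 lower, where 15% of all tested genes were called, 7.89% higher and 7.08% lower. With each chromosome centred, Dnmt3l and Dnmt3a were still called in clone 1 (10.3% of all genes) and Tet2 in clone 2 (11.2% of all genes). Dnmt3a fell in clone 1 by 0.41 on the log2 scale (SE 0.0678, adjusted p = 0.00115). In clone 2 its log2 change was 0.09 (SE 0.0673, adjusted p = 0.423). The difference between the clones was tested directly, in a comparison where 2 members, Dnmt3a and Dnmt3b, were called. Of all genes, 6.30% were called there, 2.53% higher in clone 2 and 3.77% lower, and 4.99% with each chromosome centred, where both members were still called. Dnmt3a was higher in clone 2 than in clone 1 by 0.50 (SE 0.068, adjusted p = 0.00115), and this call held under all 14 alternatives. All 10 tested genes nearest to Dnmt3a had a lower log2 difference between the clones than Dnmt3a, with a median of 0.06. Chromosome 12 had a median of -0.01 in clone 1 against control and -0.03 in clone 2.

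Dnmt3b (Entrez 13436, chr2:153649411-153687730, plus strand), the other de novo methyltransferase, had its own pattern. It was at 282 and 304 CPM in control, 296 and 338 in clone 1, and 258 and 261 in clone 2. Control lay between the clones and overlapped with clone 1. The log2 change in DKO was -0.02 (SE 0.104, adjusted p = 0.926). Dnmt3b was lower in clone 2 than in clone 1 by a log2 difference of -0.29 (SE 0.0751, adjusted p = 0.0372), below all 10 of its nearest genes. The adjusted p was 0.209 without clone 1 replicate 2, 0.190 without clone 2 replicate 1 and 0.188 without clone 2 replicate 2.

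Dnmt3l (Entrez 54427, chr10:78042287-78063622, plus strand), the cofactor that lacks catalytic activity, was at 226 and 248 CPM in control. Clone 1 had 309 and 360.4 CPM and clone 2 had 277 and 274. All 4 DKO libraries lay above both control libraries, with the libraries of clone 1 highest. Dnmt3l rose in clone 1 by 0.50 (SE 0.0799, adjusted p = 9.6e-04), and this call held under all 14 alternatives. In clone 2 the log2 change was 0.21 (SE 0.08, adjusted p = 0.0930), and in both clones together 0.36 (SE 0.108, adjusted p = 0.0667). The latter was called by DESeq2 (adjusted p = 0.0180), and by edgeR with no filter on low counts (0.0264) or without clone 2 replicate 2 (0.0390). Between the clones the log2 difference was -0.28 (SE 0.0799, adjusted p = 0.0550), which does not show that the clones acted alike. The 10 genes nearest to Dnmt3l all had log2 changes above 0 in DKO, with a median of 0.14, and 1 of them was called. That gene, Cfap410, named after its value was seen, changed by 0.64 (adjusted p = 0.0484). The Dnmt3l gene shares 1324 bases with Aire, which took 244 reads over the 6 libraries. The strand that was counted is not given, so reads of both in those bases cannot be told apart.

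**Figure D3:**
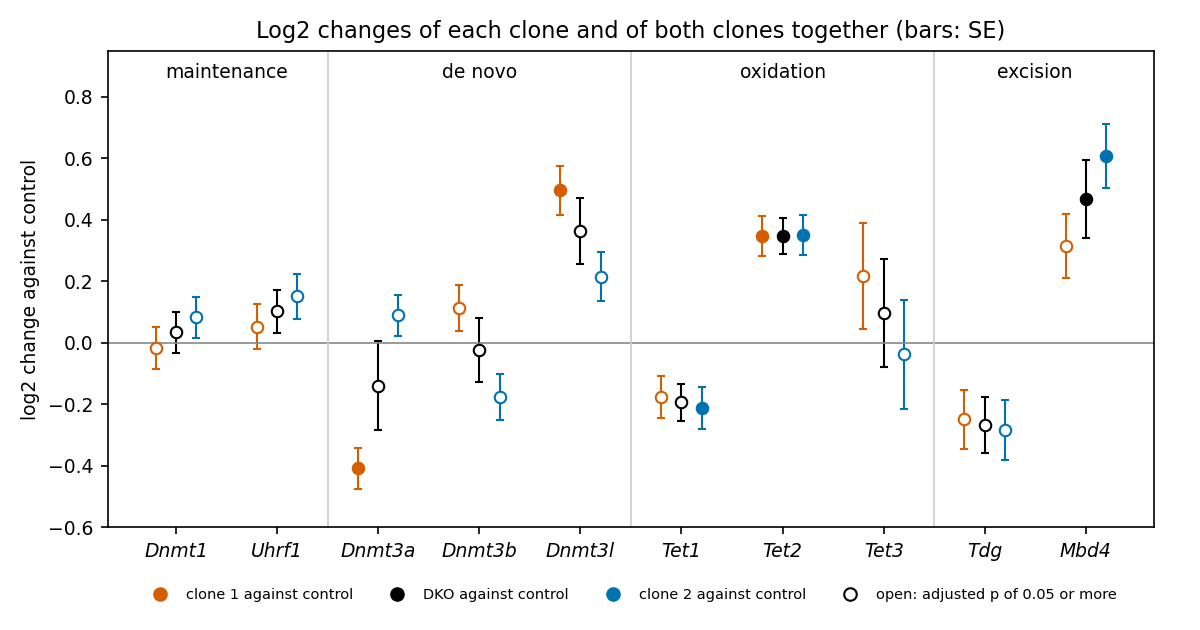
Log2 change of each gene against control for clone 1, both clones together (DKO) and clone 2, with bars for the SE and filled points for an adjusted p under 0.05. The 3 Tet2 points stand at 0.35, whereas Dnmt3a stands at -0.41 in clone 1 and 0.09 in clone 2.

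Among the oxidising enzymes, Tet2 rose in both clones and Tet1 fell in clone 2. Tet2 (Entrez 214133, chr3:133463677-133545136, minus strand), which lacks the CXXC DNA-binding domain that TET1 and TET3 have, was at 474 and 473 CPM in control. It was at 595 and 610.4 CPM in clone 1 and at 599.7 and 608 in clone 2. All 4 DKO libraries lay above both control libraries, with a narrow spread within each group. Tet2 rose in DKO by 0.35 (SE 0.0585, adjusted p = 0.00501), to 127% of control. The rise was 0.35 in clone 1 (SE 0.0654, adjusted p = 0.00282) and 0.35 in clone 2 (SE 0.0654, adjusted p = 0.00260).

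The Tet2 value was smaller when set against its chromosome. With each chromosome centred, the log2 change was 0.18 in DKO (adjusted p = 0.210), 0.09 in clone 1 (adjusted p = 0.448) and 0.27 in clone 2 (adjusted p = 0.0202). Tet2 was above 74.5% of the tested genes on chromosome 3 in DKO. Its 10 nearest genes had a median of 0.09, ranging from -0.51 to 0.33, and all lay below Tet2. In clone 1 their median was 0.26, with Tbck (0.45), Ppa2 (0.39) and Cisd2 (0.38) called higher and Cenpe (-0.36) called lower. In clone 2 it was 0.12. These neighbours are named after their values were seen. The call in DKO also ended when either control library was left out (adjusted p = 0.0704 for replicate 1 and 0.0634 for replicate 2).

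Tet1 (Entrez 52463, chr10:62804570-62887469, minus strand), the TET enzyme with the CXXC domain that is a mark of ES cells, was at 785 and 783 CPM in control. It was at 706 and 681 CPM in clone 1 and at 677 and 676 in clone 2. All 4 DKO libraries lay below both control libraries. The log2 change in DKO was -0.19 (SE 0.0591, adjusted p = 0.0722), 87.4% of control, which was not called by edgeR. It was called lower by DESeq2 (adjusted p = 0.049) and limma-voom (adjusted p = 0.0447). Tet1 fell in clone 2 by 0.21 (SE 0.0671, adjusted p = 0.0498), a call that held in 6 of 14 alternatives. In clone 1 the log2 change was -0.18 (SE 0.067, adjusted p = 0.0978). The log2 difference between the clones was -0.04 (SE 0.0671, adjusted p = 0.822). Of its 10 nearest genes, Rufy2 (-0.46, adjusted p = 0.00382) and Hnrnph3 (-0.72, adjusted p = 0.00102) were called lower in DKO. Both are named after their values were seen.

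Tet3 (Entrez 194388, chr6:83362373-83457208, minus strand), known for oxidising the paternal genome in the zygote, was the least abundant member. It was at 6.67 and 7.59 CPM in control, 7.29 and 9.27 in clone 1, and 7.83 and 6.07 in clone 2, from 162 to 258 reads a library. The groups overlapped, with a log2 change in DKO of 0.10 (SE 0.175, adjusted p = 0.798). All 10 of its nearest genes had a higher log2 change than Tet3 in DKO, with a median of 0.50, and Dctn1 (0.40), Mthfd2 (0.39) and Mob1a (0.53) were called higher. Dctn1 and Mob1a are named after their values were seen. All 10 were above Tet3 in each clone as well. With the chromosome centred, the log2 change of Tet3 was -0.36 in DKO (adjusted p = 0.284) and -0.53 in clone 2 (adjusted p = 0.0695).

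The make-up of each family was computed per library from CPM per kilobase. Tet1 took 55.4 and 55.4% of the TET family in the control libraries and 47.2, 45.6, 45.9 and 45.6% in the DKO libraries. Tet2 took 44.0 and 43.9% in control and 52.2, 53.6, 53.4 and 53.9% in DKO. Tet1 was thus the larger share in both control libraries and Tet2 in all 4 DKO libraries, and the shares did not overlap. That order depends on the width: without division by it, Tet1 was the larger share in every library, at 61.9 to 62.0% in control and 52.4 to 54.0% in DKO, against 45.4 to 47.1% for Tet2 in DKO. The shares were not centred on chromosomes. With centring, the log2 change of Tet2 was 0.09 in clone 1 and 0.27 in clone 2, in place of 0.35 in both. The part of the chromosome 3 shift in the order of Tet1 and Tet2 was not tested. Tet3 took 0.528 to 0.799% in every library. In the Dnmt3 family, Dnmt3l took 55.3 ± 0.452% (n = 2) in control and 61.9 ± 0.721% (n = 4) in DKO, and Dnmt3b 40.0 ± 0.192% and 34.3 ± 0.544%. Dnmt3a took 4.70 ± 0.259% in control, with 2.84% in clone 1 and 4.78% in clone 2.

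Each share was compared with a two-sided exact permutation test over 4 DKO and 2 control libraries, which cannot give a p under 0.0667. That smallest value was reached by the shares of Tet1 (-9.30 percentage points), Tet2 (9.29), Dnmt3b (-5.72) and Dnmt3l (6.62), and it became 0.10 after adjustment over the 6 shares. The Dnmt3a share differed by -0.89 points (exact p = 0.333) and the Tet3 share by 0.011 points (exact p = 0.867). Shares of a family sum to 100%, so they are not independent. On the scale without division by width, Dnmt3b differed by -4.23 points (exact p = 0.133, 0.20 after adjustment) and Dnmt3a by -2.61 (exact p = 0.467). Dnmt3b then no longer reached the smallest p.

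**Figure D4:**
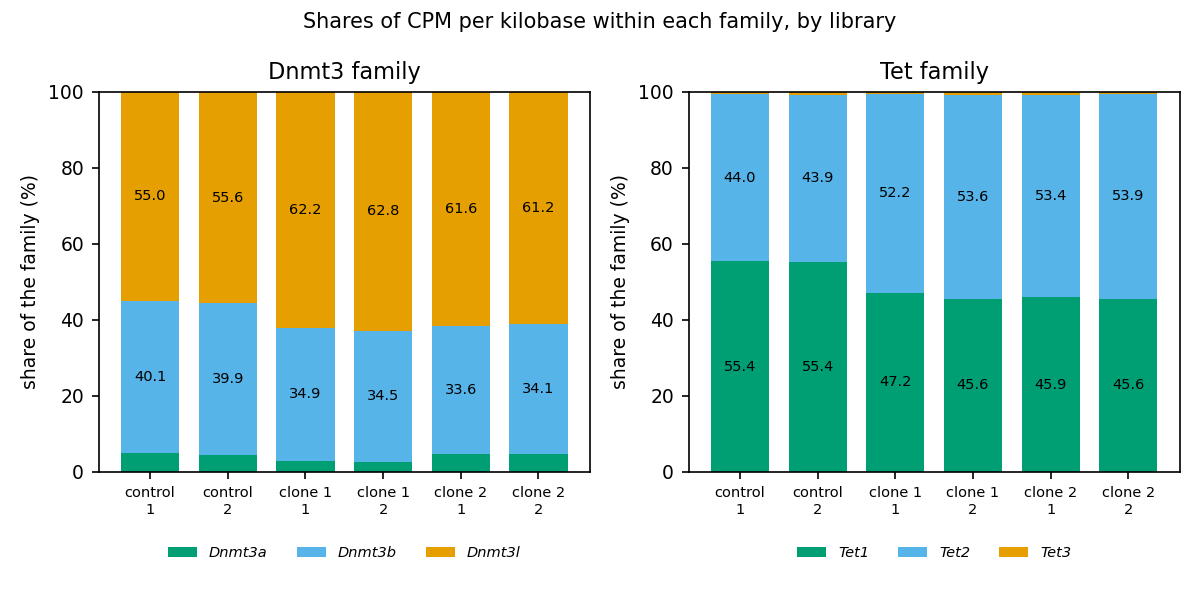
Share of each gene in the CPM per kilobase of its family, in percent, with 1 stacked bar per library. The Tet1 part is 55.4% in both control bars and at most 47.2% in the DKO bars, and the Dnmt3l part is at least 61.2% in the DKO bars.

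For excision, Mbd4 rose in DKO and Tdg was not called. Mbd4 (Entrez 17193, chr6:115840697-115853400, minus strand), the glycosylase with a methyl-CpG binding domain, was at 27.98 and 30.7 CPM in control. Clone 1 had 34.0 and 39.0 CPM and clone 2 had 47.9 and 41.4. All DKO libraries were above control and those of clone 2 were highest. Mbd4 rose in DKO by 0.47 (SE 0.127, adjusted p = 0.0469), to 138% of control. It rose in clone 2 by 0.61 (SE 0.104, adjusted p = 0.00135), while the change in clone 1 was 0.32 (SE 0.104, adjusted p = 0.0572). The difference between the clones was 0.29 (SE 0.103, adjusted p = 0.123).

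The Mbd4 value was close to that of its chromosome. It lay above 47.4% of the tested genes on chromosome 6 in DKO, and with the chromosome centred its log2 change was 0.0028 (adjusted p = 0.994), and 0.11 in clone 2 (adjusted p = 0.543). Its 10 nearest genes had a median of 0.52, with Rpl32 (0.82), Ift122 (0.62), Cand2 (0.59), Washc2 (0.45) and Tmcc1 (0.40) called higher, all named after their values were seen. Ift122 shares 22 bases with Mbd4 and went from 11.9 to 18.3 CPM. The call in DKO also ended without either control library, at an adjusted p of 0.307 without replicate 1 and 0.177 without replicate 2. It ended too without clone 1 replicate 2 (0.0640), clone 2 replicate 1 (0.0738) or clone 2 replicate 2 (0.0709).

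Tdg (Entrez 21665, chr10:82629814-82650799, plus strand), the glycosylase that removes the further oxidised forms made by TET enzymes, was at 98.2 and 110.2 CPM in control. It was at 80.9 and 94.4 CPM in clone 1 and at 92.4 and 78.7 in clone 2. All DKO libraries lay below control, by little for the highest of them. The log2 change in DKO was -0.27 (SE 0.0917, adjusted p = 0.107), 83.1% of control, and was not called. It was -0.25 in clone 1 (SE 0.0965, adjusted p = 0.103) and -0.28 in clone 2 (SE 0.0968, adjusted p = 0.0669). With no filter on low counts, edgeR called Tdg lower in each clone but not in DKO. With each chromosome centred, the log2 change in DKO was -0.24 (adjusted p = 0.156). The transcribed pseudogene Tdg-ps2 went the same way, from 61.3 to 50.5 CPM (log2 change -0.28, adjusted p = 0.138). How the authors counted reads that match both is not given, so the counts of Tdg are uncertain. Tdg also shares 369 bases with Glt8d2, which took 91 reads over the 6 libraries.

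The other genes of the pathway were taken as 5 lists. Their counts are read against the 8.69% of all tested genes called in DKO against control (5.06% higher, 3.62% lower). The lists were chosen with earlier results of these data known, so their shares are a description and no test. Of 19 readers of methyl-CpG and their partners, 1 was called higher and 1 lower in DKO against control, with a median of -0.08. These 2 of 19 are 10.5%, near the 8.69% of all genes, so that count is no result about the list. With each chromosome centred, 1 of the 19 was called higher and 2 lower, against 5.23% of all genes called in either direction. At an unadjusted p under 0.05, 1 was higher and 4 lower, and 1 higher and 3 lower with that centring. DESeq2 and limma-voom each called 1 higher and 1 lower. Mbd1, a methyl-CpG binding repressor, rose by 0.61 (adjusted p = 0.00280), from 24.8 and 26.8 CPM in control to between 36.2 and 41.4 CPM in DKO. Zfp57, the zinc finger protein that keeps methylation at imprinted regions, fell by 0.40 (adjusted p = 0.0116), from 599.9 and 529.6 to between 389 and 459 CPM. Both calls held with each chromosome centred. That of each ended without control replicate 1, at adjusted p of 0.0622 and 0.183.

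Of 20 TET partners and base excision repair genes, 18 were tested, and 4 were called higher and 0 lower, with a median of 0.12. That is 22.2% called higher, against 5.06% of all genes and 49.1% of those on chromosome 6, where 3 of the 4 lie. With each chromosome centred, 2 of the 18 were called higher and 0 lower, against 5.23% of all genes called in either direction. At an unadjusted p under 0.05, 5 were higher and 1 lower, and 7 higher and 0 lower with each chromosome centred. Without centring, DESeq2 and limma-voom each called 4 higher and 0 lower. Hmces, which shields abasic sites in single-stranded DNA, rose by 0.99 (adjusted p = 0.00102), from 56.5 to 112 CPM. Ogg1, the 8-oxoguanine glycosylase, rose by 0.77 and the stress-induced Gadd45a by 0.67. All 3 lie on chromosome 6, and with the chromosome centred Hmces was still called at a log2 change of 0.53 (adjusted p = 0.0316), while Ogg1 and Gadd45a were not called. Gadd45b, on chromosome 10, rose by 0.37 (adjusted p = 0.0341). That call ended without either control library (0.193 for replicate 1, 0.219 for replicate 2), without clone 1 replicate 2 (0.0713) and without clone 2 replicate 1 (0.0832).

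Of 17 genes of the methyl donor cycle, which supplies S-adenosylmethionine, 14 were tested, and 3 were called higher and 0 lower, with a median of 0.06. That is 21.4% called higher, against 5.06% of all genes and 49.1% of those on chromosome 6. With each chromosome centred, 1 of the 14 tested was called higher and 0 lower, against 5.23% of all genes called in either direction. Without centring, DESeq2 and limma-voom each called 4 higher and 0 lower. At an unadjusted p under 0.05 there were 4 higher and 0 lower, and 1 higher and 1 lower with centring. Ahcyl2 (0.41), a homologue of the enzyme that hydrolyses S-adenosylhomocysteine, and Mthfd2 (0.39), a mitochondrial folate enzyme, lie on chromosome 6 and were not called with it centred. Mtr, methionine synthase, rose by 0.34 (adjusted p = 0.0246). It lies on chromosome 13 and was still called. Of 9 genes that make or use 2-oxoglutarate, edgeR called 0, with a median of -0.01. There, 2 were higher and 0 lower at an unadjusted p under 0.05, and DESeq2 and limma-voom called 0.

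The last list holds 13 germline genes known to carry promoter methylation in somatic cells. Of these, 5 fell in DKO and 0 rose, with a median log2 change of -0.62. That is 38.5% called lower, against 3.62% of all genes, a description only, since the list was chosen with earlier results known. At an unadjusted p under 0.05 there were 6 lower and 0 higher, and DESeq2 and limma-voom each called 5 lower and 0 higher. Sycp1, of the synaptonemal complex, fell by 1.45 (adjusted p = 6.4e-04), from 23.7 and 24.8 CPM in control to between 7.21 and 10.1 CPM in DKO. Ddx4, the germ cell helicase, fell by 1.00 (adjusted p = 0.00151), and Taf7l, a germ cell transcription factor subunit, by 1.41 (adjusted p = 0.00627). Tuba3a, a testis tubulin, fell by 0.96 (adjusted p = 0.0126). It lies on chromosome 6, whose median was 0.48. Dazl, a germ cell RNA-binding protein, fell by 0.61 (adjusted p = 0.0217), from 117 and 104 to between 59.3 and 86.8 CPM. The levels were low for Taf7l, at 1.65 to 7.59 CPM. In clone 1, 8 of the 13 were lower, where 6.47% of all genes were, and in clone 2, 6 were lower, where 7.08% of all genes were, with 0 higher in both. At an unadjusted p under 0.05 these were 9 lower and 0 higher, and 7 lower and 1 higher. The clones also differed from each other in 5 of the 13 (38.5%, against 6.30% of all genes). Tuba3a (0.65), Sycp3 (0.70) and Asz1 (1.34) were higher in clone 2 than in clone 1, and Dazl (-0.45) and Hormad1 (-0.39) lower. Sycp3, Asz1 and Hormad1 are named after their values were seen. With each chromosome centred, 3 of the 13 were called higher in clone 2 than in clone 1 and 1 lower, against 4.99% of all genes. Against control, that centring gave 6 lower in DKO, 10 in clone 1 and 6 in clone 2, with 0 higher in each. Of all genes, 5.23%, 10.3% and 11.2% were then called in either direction.

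**Figure D5:**
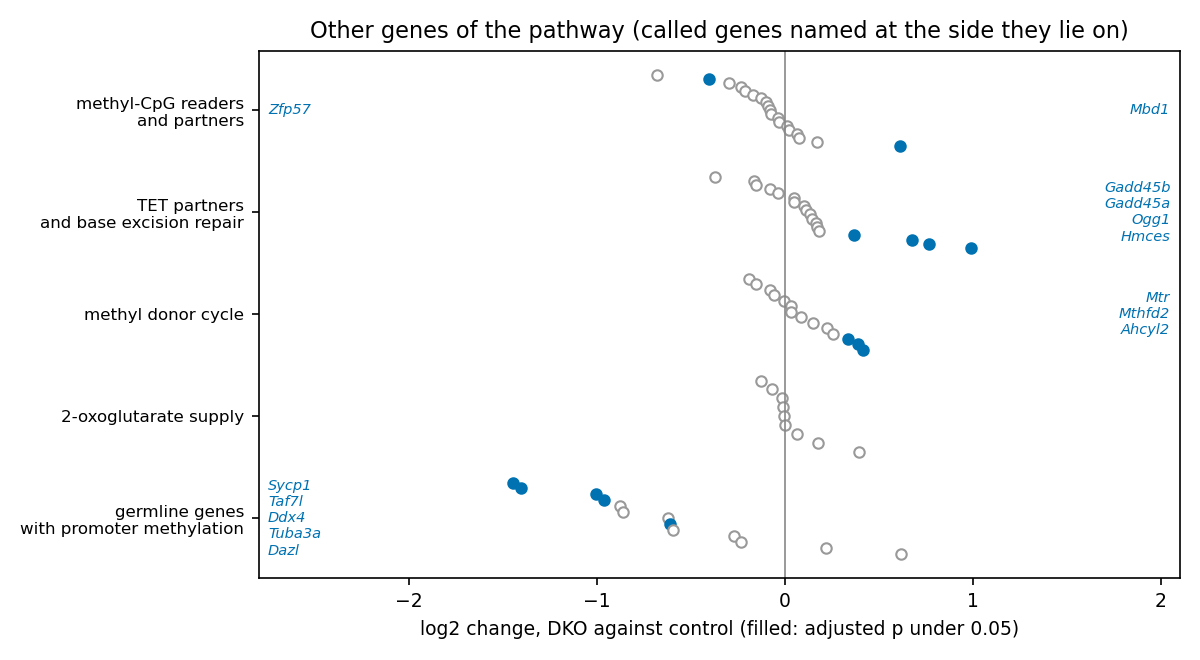
Log2 change in DKO against control of each tested gene of the 5 lists, 1 point per gene, filled where the adjusted p was under 0.05, with the called genes named at the side. The germline genes reach down to -1.45, and the called genes of the repair and methyl donor lists all lie above 0.

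Of the 14 list genes called in DKO against control, 5 were still called without control replicate 1. When control replicate 2 was left out, 7 were. The 5 were Hmces, Gadd45a, Ddx4, Sycp1 and Taf7l. The 7 were Mbd1, Zfp57, Hmces, Gadd45a, Mthfd2, Ddx4 and Sycp1. With each chromosome centred, 10 were still called. With the counts of each clone summed to 1 sample, the edgeR adjusted p of the 14 ran from 0.215 to 0.410.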

How the data were processed

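RNA-seq of 6 mouse ES cell libraries was used, 2 from each of 3 clones. The table the authors deposited holds whole, unnormalized counts of reads for each Entrez gene ID and the gene's width. Per the submitters' processing notes, the authors used STAR 2.5.0a and mm10 (GRCm38). For the counter, annotation, counted strand and reads matching several genes, the settings are not given in these sources. Of 24467 gene IDs, 24437 matched a RefSeq table (GRCm38.p6). The other 30 took 0.389 to 1.62% of a library's reads and were kept in the totals. Libraries held 24628872 to 34641560 counts, which sets the counting error.

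From these counts, edgeR 4.0.16 in R 4.3.3 (filterByExpr with 3 groups, TMM, quasi-likelihood F test, Benjamini-Hochberg over 14771 genes, threshold 0.05) was run on the whole table. DKO against control used genotype as the only term, with 4 residual degrees of freedom. The clones were compared in a fit of 3 groups with 3 residual degrees of freedom. The script was tested on simulated data. Standard errors (SE) came from the F statistic. Centring subtracted, in each library, the median log2 deviation of each chromosome as an offset. Neighbours are the 5 tested genes on each side. DESeq2 1.42.0 and limma 3.58.1 (voom), other scalings and filters, left-out libraries, summed clones and a replicate block were the alternatives. Between replicates the chi-square per gene was 44.5 in control, 11.9 in clone 1 and 12.6 in clone 2, each more than sampling noise.

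The text names all 10 members, each list gene called in DKO against control, and, for each member called there, the 3 genes most like it. The members and lists were chosen with earlier results of these data known. 1 gene of the methyl donor list is not reported here, and the counts of that list leave it out.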

Additional observations from a re-analysis of the deposited data

Results flagged for a closer look

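Among the 4 DKO libraries, Tet1 in clone 1 replicate 1 stood apart, at 706 CPM, above the other 3 at 676 to 681 CPM. Its gap took 0.832 of the range of the group, just over the 95% limit of Dixon's test, and chance alone flags about 1 group in 20. It lay nearer to control, which had 785 and 783 CPM.

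The clones differed in Dnmt3a and Dnmt3b by the edgeR test of clone 2 against clone 1, which is also the test of the difference between their changes against the shared control. For Dnmt3a the log2 difference was 0.50 (adjusted p = 0.00115), with both libraries of clone 1 below control and both of clone 2 above it. For Dnmt3b it was -0.29 (adjusted p = 0.0372), with both libraries of clone 2 below control.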

How the results depend on the processing

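Of the 10 members, 2 were called in DKO against control. With a filter of at least 2 CPM on average this was 1, with DESeq2 4, with the replicate block 1, with each chromosome centred 0, with counts summed per clone 0, and with 1 library left out 0 to 2. The 3 called in clone 1 became 5 with no filter on low counts (3 to 4 with 1 library left out). The 3 called in clone 2 became 5 with no filter and 1 with chromosomes centred (2 to 5 with 1 library left out), and the 2 called between the clones were 1 to 3 with 1 library left out. Apart from these, RLE scaling, library size alone and limma-voom stayed within 1.5 times of each count. Replicate numbers did not pair the libraries (correlations of same-numbered deviations 0.028, -0.083 and 0.026), and under the block Mbd4 (adjusted p = 0.0868) and, among the called list genes, Gadd45b (0.0661) lost their call in DKO, Tet1 lost its call in clone 2 (0.0651) and Dnmt3l gained one between the clones (0.0385).

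Over all genes, 1283 were called in DKO against control, 772 with chromosomes centred, 246 without control replicate 1, 313 without control replicate 2 and 2 with counts summed per clone. Called genes numbered 2253 in clone 1 (1292 to 2051 with 1 library left out), 2211 in clone 2 (1123 to 2302) and 930 between the clones (270 to 934, and 1453 with no filter on low counts).

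Small log2 changes that changed sign are given with the other end of their range over the left-out libraries (LOO). In DKO they were Tet3 (-0.36 centred, -0.014 without clone 1 replicate 2, LOO up to 0.19), Dnmt1 (-0.012 without control replicate 1, LOO up to 0.086) and Dnmt3b (0.035 without control replicate 2, 0.026 without clone 2 replicate 1 and 0.024 without clone 2 replicate 2). In clone 1 they were Dnmt1 (0.024 centred, 0.036 without control replicate 2, LOO down to -0.061), Tet3 (-0.21 centred) and Mbd4 (-0.11 centred). In clone 2 it was Tet3 (0.060 without control replicate 2, 0.14 without clone 2 replicate 2, LOO down to -0.23, with the centred value at -0.53). Between the clones they were Tet2 (-0.017 without clone 1 replicate 1, -0.0072 without clone 2 replicate 2, LOO up to 0.021, with the centred value at 0.18) and Tdg (0.080 without clone 1 replicate 2, 0.076 without clone 2 replicate 2, LOO down to -0.16). On CPM with no division by width, the Dnmt3a share differed by -2.61 percentage points and the Dnmt3b share by -4.23. For the Tet3 share the difference was -0.032 (control replicate 1 left out) and -0.036 (clone 1 replicate 2 left out), LOO up to 0.054. With 1 library left out the shares ranged from -1.24 to -0.53 points for Dnmt3a and from -5.93 to -5.50 for Dnmt3b. The cause of these changes was not tested. Tet3, with 162 to 258 reads a library, is the member whose counts limit its precision most.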

Other observations

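For the members called in DKO against control, the genes with the most similar log2 CPM over the 6 libraries were looked up among 11577 other tested genes with a mean of at least 2 CPM. The highest Pearson correlations with Tet2 were those of Gtf2h1 (0.999), Tasor2 (0.998) and H3c14 (0.998), and 337 genes were above 0.95. The highest with Mbd4 were those of Lpcat3 (0.988), Denn2b (0.987) and Sema5b (0.985), and 75 genes were above 0.95. The points are 6 libraries of 3 clones that share their control and DKO groups, and these values are a description only.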
